A study of Mus musculus with 2 samples.

Results

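The caseins and the other main protein genes of mouse milk were followed in cultures grown from mammary basal cells, with or without macrophages. They are 10 genes, picked by symbol from the 49492 genes of the count table: the caseins Csn1s1, Csn1s2a, Csn1s2b, Csn2 and Csn3, the whey proteins Wap and Lalba, the mucin-like Glycam1, and the milk fat globule proteins Btn1a1 and Xdh. Basal epithelial cells (lineage-negative, CD24+ and CD29 high by flow cytometry) came from mammary glands of adult female wild-type (WT) mice. They were kept in a 3D matrix for 11 to 14 days, either untreated and alone (ctrl) or sharing the well with bone-marrow-derived macrophages polarised by IL-4 and IL-13 to an M2-like state (M2), which sat in a porous insert outside the matrix. Both cultures shared the WT genotype and, per the study's methods, a medium with EGF, insulin, transferrin and selenium. The methods name prolactin only as an addition made when needed, and the labels list none for either library. Each group was 1 library, and the number of animals behind it and whether they were pooled are not given in the sources used here.

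Caseins are the bulk proteins of milk, packed into micelles by secretory cells of the alveoli, with kappa-casein (Csn3) holding the micelle surface. Their genes are known targets of prolactin, which acts through the kinase JAK2 and the transcription factor STAT5 together with glucocorticoids, and in the gland they are made by luminal alveolar cells rather than by the contractile basal layer. The paper's flow cytometry of such colonies found mostly luminal cells in both groups, with a larger basal share in M2. Whether those were the sequenced cultures is not stated. The comparison asks how much milk protein RNA these basal-derived cultures held, and whether it differed when M2-like macrophages were present.

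The ctrl library held 26912610 reads in genes and the M2 library 29413844, and mitochondrial genes took 4.83% and 4.11% of them. Levels are given in CPM of the library size after scaling by the trimmed mean of M values (TMM), and differences as the log2 of M2 over ctrl with 1 read added to each count. Genes with at least 10 reads in all went into an exact binomial test (two-sided) on the reads of these 2 libraries, and were called at an adjusted p under 0.05 with at least a 2-fold difference. With no replicates, the test compares libraries and not conditions, and every 95% interval covers counting error only. Intervals of a difference were taken on the counts with no read added, so at low counts they are not centred on it. By this rule 8.16% of 19233 genes were called higher in M2 and 6.55% lower, and the median log2 difference was -0.0032.

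Of the 10 milk protein genes, 6 reached the read minimum, and the other 4 (Csn1s2a, Csn1s2b, Wap and Glycam1) held 9 reads or fewer in all. Csn1s1, Csn2 and Csn3 were called higher in M2, Btn1a1 and Lalba were called lower, and Xdh was just under the 2-fold limit. Csn2 passed the read minimum only through its M2 reads. The group therefore did not move together, and its members ranged from 7.28 to -2.77 on the log2 scale. In bulk RNA, a change in the number of expressing cells and a change in RNA per cell cannot be told apart.

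**Figure D1:**
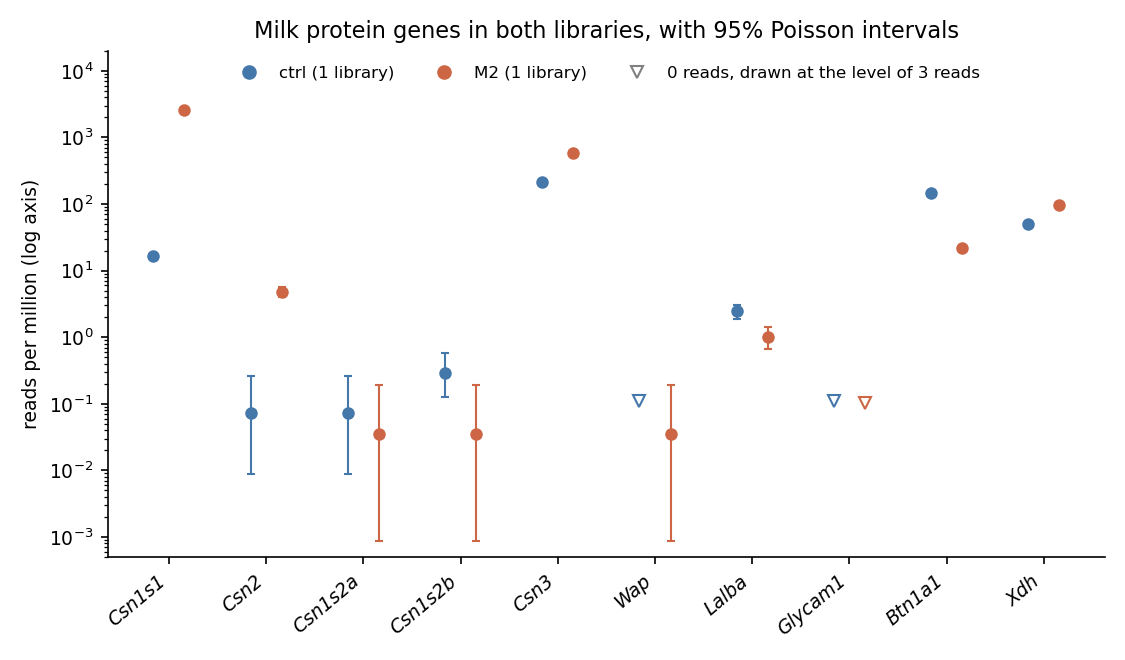
Levels of the 10 milk protein genes in the ctrl and M2 libraries, in CPM on a log axis, with each point 1 library, bars as 95% Poisson intervals, and open triangles as counts of 0 drawn at the level of 3 reads. Csn1s1 lies at 16.7 CPM in ctrl and 2600.1 CPM in M2, whereas Btn1a1 lies at 147 CPM in ctrl and 21.5 CPM in M2.

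Csn1s1 encodes an alpha-S1-type casein, a calcium-binding component of the micelle core, and lies at chr5:87666208-87682578 on the plus strand (GRCm38 throughout). Its count was 460 in ctrl and 74931 in M2, or 16.7 and 2600.1 CPM. The difference was 7.28 on the log2 scale (95% interval 7.15 to 7.41), a 155-fold higher level in M2. Among the genes tested, 7 had a larger log2 difference. By reads Csn1s1 ranked 8197 among all genes in ctrl and 21 in M2. It stayed called with edgeR's exactTest under an assumed coefficient of variation (CV) between replicates of 0.4 (adjusted p = 1.62e-07).

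Csn2, at chr5:87692624-87699630 on the minus strand, encodes beta-casein, a major milk casein and the usual marker of lactogenic differentiation. Its count was 2 in ctrl and 138 in M2, or 0.0728 and 4.79 CPM. The M2 level was above the floor of 0.104 CPM that 3 reads set. With 1 read added to each count the ratio of M2 to ctrl was 44.2. The counting interval, taken with no read added, ran from 17.9 to 548 and is wide with 2 ctrl reads. The call was kept at the assumed CV of 0.4 (edgeR exactTest, adjusted p = 0.000346).

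Csn3, at chr5:87925579-87932665 on the plus strand, the kappa-casein gene, had the most reads of the 10 genes in ctrl. Its reads were 5916 in ctrl and 16755 in M2, or 215 and 581 CPM. The log2 difference was 1.43 (95% interval 1.39 to 1.48), a 2.70-fold higher level in M2. With an assumed CV of 0.2 it was still called (edgeR exactTest, adjusted p = 0.0108), and with 0.4 it was not (edgeR exactTest, adjusted p = 1). The antisense gene 1700066N21Rik overlaps it and had 0 reads in both libraries.

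The alpha-S2-type caseins, calcium-binding like Csn1s1, were close to 0 in both libraries. Csn1s2a (chr5:87774567-87788797, plus strand) had 2 reads in ctrl and 1 in M2, too few for a ratio to be read. For Csn1s2b (chr5:87808082-87824426, plus strand) the counts were 8 in ctrl and 1 in M2, with a log2 counting interval from -8.54 to -0.17. Neither reached the read minimum, so neither was tested, and at this depth levels below about 0.104 CPM in M2 could not be told from 0.

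Among the whey proteins, Wap (whey acidic protein, chr11:6635482-6638637, minus strand) had 0 reads in ctrl and 1 in M2. Lalba (alpha-lactalbumin, the regulatory subunit of lactose synthase, chr15:98480400-98482683, minus strand) stood at 67 reads in ctrl against 29 in M2, or 2.44 and 1.01 CPM. The log2 difference was -1.25 (95% interval -1.96 to -0.63; exact binomial test, adjusted p = 0.000111), so Lalba was called lower. The call was lost at an assumed CV of 0.2 (edgeR exactTest, adjusted p = 0.132). Glycam1 (chr15:103562762-103565078, minus strand), a mucin-like milk protein, had 0 reads in both libraries. Its 95% Poisson upper limits were 0.134 CPM in ctrl and 0.128 CPM in M2.

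The milk fat globule proteins also differed from each other. Btn1a1 (butyrophilin, chr13:23456992-23465901, minus strand) and Xdh (xanthine dehydrogenase, chr17:73883908-73950182, minus strand) bind each other at the apical membrane as fat droplets are enveloped. Btn1a1 counted 4030 reads in ctrl against 619 in M2, or 147 and 21.5 CPM. Its log2 difference was -2.77 (95% interval -2.90 to -2.65), a 6.82-fold lower level in M2. It was called at an assumed CV of 0.2 and not at 0.4 (edgeR exactTest, adjusted p = 0.0940). For Xdh, which also serves purine breakdown in many tissues, the reads were 1364 in ctrl and 2808 in M2, or 49.7 and 97.4 CPM. Its log2 difference was 0.97 (95% interval 0.88 to 1.07), 1.96-fold and not called. The log2 difference of Xdh lay 3.74 units above that of Btn1a1 (95% interval 3.59 to 3.90).

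Under the assumed CV of 0.2, 3 members were called higher and 1 lower, where 5.01% and 3.59% of all genes were. Under 0.4, 2 members (Csn1s1 and Csn2) were called higher and 0 lower, where 0.910% and 0.676% of all genes were. The plot of difference against level shows these genes among all those tested.

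**Figure D2:**
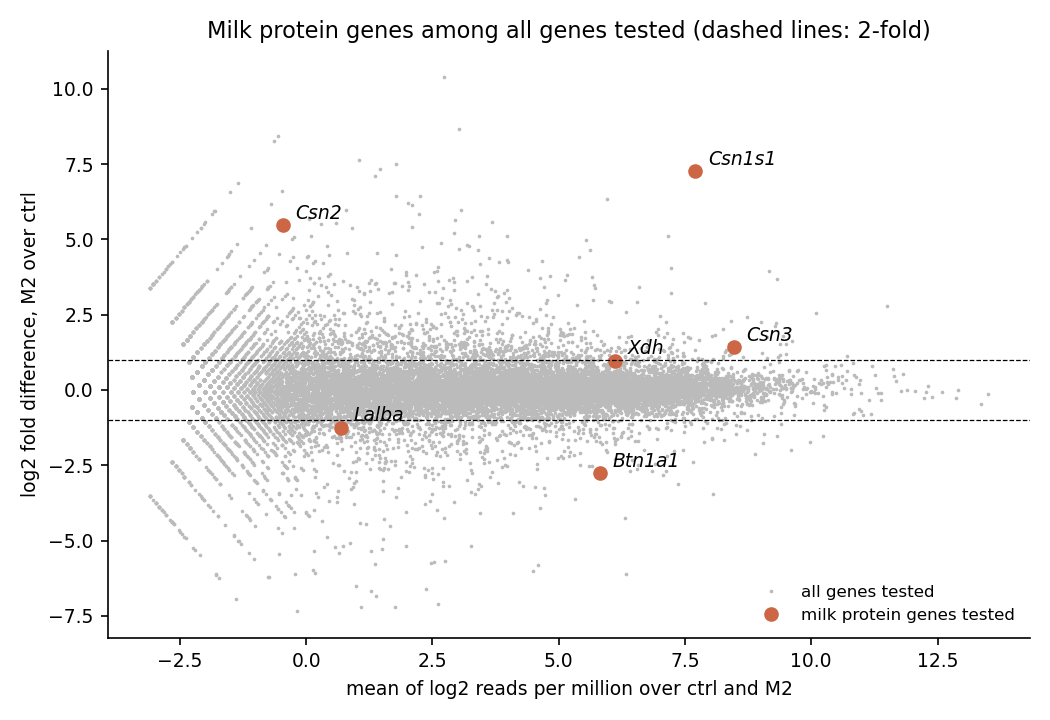
Log2 difference (M2 over ctrl) against the mean of log2 CPM over both libraries for the 19233 genes tested, as grey dots, with the 6 tested milk protein genes as large named points and dashed lines at a 2-fold difference. Csn1s1 sits at 7.28, above the bulk of genes, and Btn1a1 at -2.77, below it.

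To compare levels between members, reads were divided by gene length and scaled to a fixed total per library (TPM, made here from the counts). In ctrl the order by TPM was Csn3 (135), Btn1a1 (97.0), Xdh (28.2), Lalba (8.65) and Csn1s1 (6.97). In ctrl the intervals of Lalba (6.71 to 11.0) and Csn1s1 (6.35 to 7.64) overlap. In M2 the order by TPM was Csn1s1 (1049.7), Csn3 (353), Xdh (53.6), Btn1a1 (13.8), Lalba (3.46) and Csn2 (1.74). The table's length for Csn1s1, 6247 bases, exceeds that of its longest coding transcript in GENCODE M21, 1411 bases. The longest coding transcript of each member was then used as its length, an alternative chosen after seeing the data. The library total kept the table lengths, so these values rank members within a library and are not TPM. In ctrl the place of Csn1s1 changed: it stood at 30.9, above Xdh (28.1) and Lalba (8.23). At these lengths the ctrl counting intervals of Csn1s1 and Xdh overlap. In M2 Csn1s1 stood at 4647, and Csn2 at 9.09 was above Lalba at 3.29. The order of these genes therefore turns on the length used.

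As a share of all reads, the 10 genes made up 0.0440% of ctrl (95% Wilson interval 0.0432 to 0.0448) and 0.324% of M2 (0.322 to 0.326). Csn1s1 alone was 0.00171% of ctrl and 0.255% of M2. Without it the other members came to 0.0423% in ctrl and 0.0692% in M2. Most of the gain in milk protein reads was therefore Csn1s1.

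Within the family, the casein mixture turned over. Of 6388 casein reads in ctrl, Csn3 made up 92.6% and Csn1s1 7.20%. Of 91826 casein reads in M2, Csn1s1 made up 81.6% and Csn3 18.2%. Csn2 was a minor share in both, at 0.0313% and 0.150%. These shares do not depend on how the libraries were scaled. Per table length, Csn1s1 went from 4.91% to 74.7% and Csn3 from 94.9% to 25.1%, the same inversion.

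**Figure D3:**
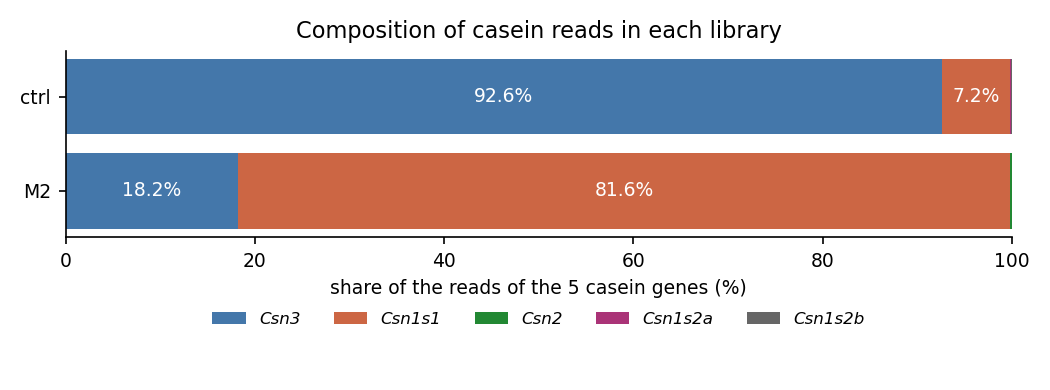
Stacked bars give the share of casein reads, in percent, from each of the 5 casein genes in the ctrl and M2 libraries. Csn3 is the main casein in ctrl at 92.6% and Csn1s1 in M2 at 81.6%.

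All 15 pairs of the tested members were compared by the ratio of their M2 over ctrl read ratios, with no read added, which is free of library size. In 14 of 15 pairs the 95% interval, not adjusted for the number of pairs, left out 0. The log2 difference of Csn1s1 lay 5.85 units above that of Csn3 (5.71 to 5.98), and that of Csn2 lay 4.61 above it (2.59 to 6.62). Csn1s1 and Csn2 were the pair whose interval included 0, at 1.24 (-0.78 to 3.26), and the 2 ctrl reads of Csn2 set its width. The difference of Csn3 lay 0.46 units above that of Xdh (0.36 to 0.56). Lalba and Btn1a1 were both lower in M2, and the difference of Lalba lay 1.49 units above that of Btn1a1 (0.85 to 2.13).

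The casein genes form a cluster on chromosome 5 that spans 266 kb, with Csn1s1 and Csn2 separated by 10.05 kb on opposite strands with their 3′ ends toward each other. Within 500 kb of it the table holds 53 genes, of which 48 are not caseins. Among these 48, 40 had 0 reads in both libraries, 6 had 1 to 9 reads, and 2 were tested. Both tested neighbours were called lower in M2, but each passed the read minimum only through its ctrl reads, so a difference in that direction was favoured by the filter. Gm42794, an unnamed gene model on the opposite strand inside Prr27, counted 40 reads in ctrl and 4 in M2, for a log2 difference of -3.10 (95% interval -5.34 to -1.92). Odam, an enamel-matrix gene that is also made in other epithelia, had 11 and 1 reads, with a log2 interval from -8.96 to -0.75. At an assumed CV of 0.2 the call of Odam was lost (edgeR exactTest, adjusted p = 0.122), and at 0.4 neither was called. The reads of all 48 other genes summed to 58 in ctrl and 11 in M2.

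**Figure D4:**
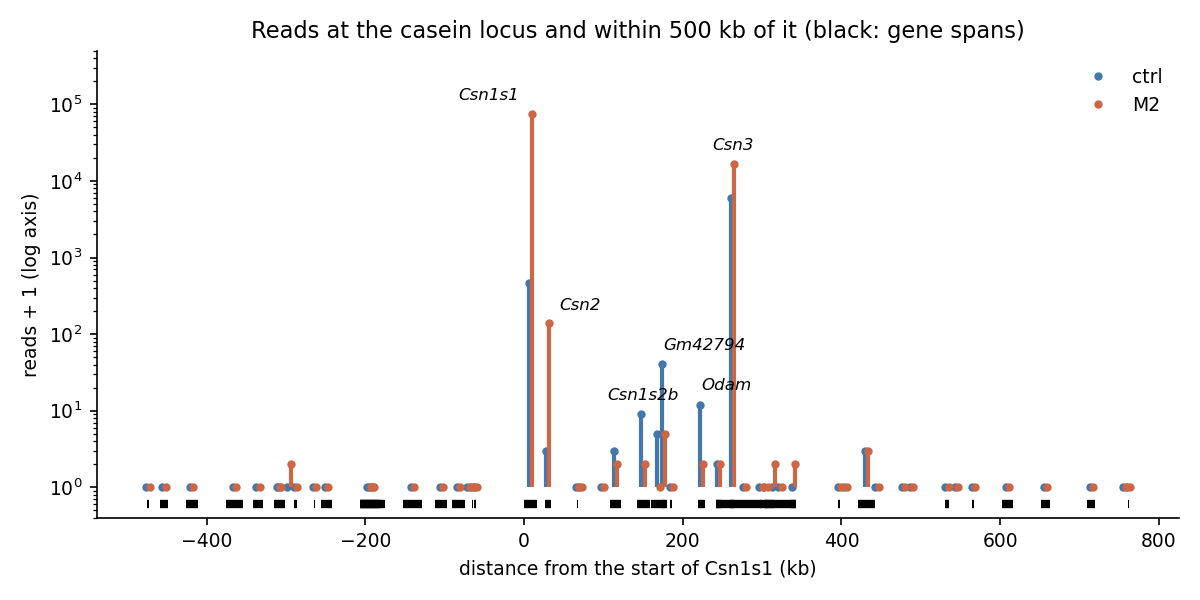
Reads plus 1, on a log axis, of every gene at the casein locus and within 500 kb of it against distance from the start of Csn1s1 in kb, with 1 stem for ctrl and 1 for M2 per gene and gene spans in black beneath. The M2 stems of Csn1s1 (74931 reads), Csn3 (16755) and Csn2 (138) are taller than their ctrl stems, and those of Gm42794 and Odam are shorter.

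The 250 bases before the RefSeq start of Csn1s1 and Csn2 are shown because both genes were called higher in M2 and both hold the letters TTCNNNGAA (the same on either strand), which STAT5 is known to bind. Glycam1, at 0 reads in both libraries, and Lalba, called lower, are shown beside them. The windows are from RefSeq on GRCm38.p6, and capitals mark the TTCNNNGAA match. Of the 10 members 6 had an entry, whereas Csn3, Btn1a1, Csn1s2b and Xdh had none and could not be checked. They lie at chr5:87665958-87666207 (Csn1s1, plus strand), chr5:87699426-87699675 (Csn2, minus strand), chr15:103565082-103565331 (Glycam1, minus strand) and chr15:98482684-98482933 (Lalba, minus strand). Starts are those of RefSeq, and most of the Csn2 window lies inside the gene as the count table draws it, which begins further upstream.
Csn1s1: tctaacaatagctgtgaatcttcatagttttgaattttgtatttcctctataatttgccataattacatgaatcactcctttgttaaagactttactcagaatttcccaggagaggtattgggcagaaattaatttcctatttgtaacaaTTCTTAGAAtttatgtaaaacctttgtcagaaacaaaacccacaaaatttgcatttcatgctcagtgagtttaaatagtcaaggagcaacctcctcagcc
Csn2: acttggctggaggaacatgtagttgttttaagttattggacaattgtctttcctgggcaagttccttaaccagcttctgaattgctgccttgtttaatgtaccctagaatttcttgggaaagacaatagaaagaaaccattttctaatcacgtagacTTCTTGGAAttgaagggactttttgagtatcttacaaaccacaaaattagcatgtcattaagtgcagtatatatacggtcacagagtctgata
Glycam1: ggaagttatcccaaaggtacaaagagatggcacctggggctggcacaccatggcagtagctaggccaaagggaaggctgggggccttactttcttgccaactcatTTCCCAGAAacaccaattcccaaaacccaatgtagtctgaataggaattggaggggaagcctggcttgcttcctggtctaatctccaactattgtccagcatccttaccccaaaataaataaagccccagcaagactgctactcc
Lalba: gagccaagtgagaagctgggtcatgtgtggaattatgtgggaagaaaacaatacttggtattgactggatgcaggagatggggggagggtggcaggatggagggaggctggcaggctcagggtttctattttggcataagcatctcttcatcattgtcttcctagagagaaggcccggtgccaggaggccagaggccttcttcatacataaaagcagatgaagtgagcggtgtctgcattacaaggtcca
The match begins 100 bases before the start in Csn1s1, 93 in Csn2 and 145 in Glycam1, and the windows of Csn1s2a, Wap and Lalba hold none. Of 32851 windows of the same length over all genes, 7.02% hold this motif. The glucocorticoid receptor motif TGTTCT was found in 16.1% of those windows and, among the members, in that of Csn1s2a.

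Cell type markers were set beside these values, and all 12 luminal and all 12 basal genes passed the read minimum. The 12 luminal genes summed to 5370 CPM in ctrl and 5474 CPM in M2, with Krt7 called higher and Kit lower. The 12 basal genes summed to 9366 and 9641 CPM, with Krt17 higher and Krt15 and Oxtr, the receptor for the milk ejection hormone, lower. The luminal and basal sums differed between libraries by 0.03 and 0.04 on the log2 scale, and their list medians were 0.04 and -0.05. Of 15 macrophage genes 4 were tested and none called. The luminal, basal and macrophage calls are by the exact binomial test, which called 8.16% of all genes higher and 6.55% lower. With 4 genes tested, no call lies near these shares. Ptprc, Adgre1, Fcer1g, Tyrobp, C1qb and Chil3 had 0 reads in both libraries. The macrophage genes other than Arg1 summed to 277 reads in each library, and Arg1, which epithelial cells can also make, had 1507 and 2090 (log2 difference 0.40, not called).

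Endothelial and adipocyte reads were sparse, whereas fibroblast genes had 9316 reads in ctrl and 4120 in M2. The 8 endothelial genes summed to 89 and 107 reads, with 1 of 4 tested higher (Pecam1) and 2 lower (Kdr and Cdh5). Among 8 adipocyte genes 3 were tested, with Pparg higher and Fabp4 and Lep lower. The adipocyte list summed to 276 reads in ctrl and 66 in M2. Kdr (11 reads in ctrl, 0 in M2), Cdh5 (11 and 2) and Lep (198 and 6) passed the read minimum only through ctrl. Pparg (9 and 46) passed it only through M2, so the filter favoured the direction of these 4 calls. All 8 fibroblast genes were tested, and Dcn was higher and Col1a2, Col3a1 and Pdgfrb were lower, with 339 and 143 CPM in sum. These calls are by the exact binomial test, which called 8.16% of all genes higher and 6.55% lower. At an assumed CV of 0.4 (edgeR exactTest), Lep stayed lower and every other call in these lists was lost. At that setting 0.910% of all genes were called higher and 0.676% lower. The medians of the macrophage, endothelial and fibroblast lists were 0.15, -1.18 and -1.25, or -0.11, -0.31 and -0.53 with genes at 3 reads or fewer in a library set to their interval limit, and that of the adipocyte list was -2.59. The lower fibroblast and adipocyte sums run the same way as Btn1a1 and Lalba, and their part in those differences was not tested.

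Other proteins secreted into milk were mostly higher in M2. Of 14 such genes 13 were tested, 8 called higher and 3 lower, where 8.16% and 6.55% of all genes were. The list median was 1.93 against -0.0032 over all genes, and the list sum differed by 0.65 on the log2 scale. The list was chosen with earlier results of these data known. Pigr, which carries antibodies across the epithelium, went from 48 to 1404 reads (log2 difference 4.77). The iron carriers Trf and Ltf differed by 3.95 and 2.90, and Lcn2, which binds bacterial iron carriers, by 2.56. Spp1 (2.30), Pthlh (2.34), Cel (1.93) and Muc1 (1.91) were also higher. Muc15 (-2.11), Wfdc18 (-1.71) and Slpi (-1.19) were lower, while Mfge8 (0.24) and Folr1 (0.54) were not called and Lao1 had 0 reads in both. At an assumed CV of 0.4, 2 of these genes stayed higher and 0 lower, where 0.910% and 0.676% of all genes were.

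Genes of milk fat synthesis and secretion mostly were not called. Of 18 tested, 3 were higher (Scd1 at 1.52, Dgat2 at 1.44 and Thrsp at 1.93), 2 were lower (Acsl1 at -1.28, and Cd36 with 16 reads in ctrl and 0 in M2), and 13 were not called, for a median of -0.01. Thrsp (5 reads in ctrl, 23 in M2) passed the read minimum only through M2, and Cd36 only through ctrl. The filter favoured the direction of both calls. Plin2, the coat protein of the droplets that Btn1a1 and Xdh envelop, had 3090 and 6216 reads (0.94, not called). Of 8 genes listed for lactose synthesis, the glucose transporter Slc2a1 (1.17), Hk2 (1.41) and Pgm1 (1.20) were higher and none lower. The calls of both lists were by the exact binomial test, which called 8.16% of all genes higher and 6.55% lower. The lactose list median was 0.41. Pgm1 was picked by its symbol, which here lies at chr5:64092950-64128351, and its place in the lactose route was not checked. B4galt1, the enzyme that Lalba regulates, was at 0.78 and not called. At an assumed CV of 0.2 (edgeR exactTest) the milk fat list kept 2 higher and 2 lower, losing Thrsp. The lactose list kept 1 higher (Hk2). Over all genes 5.01% were called higher and 3.59% lower at that setting. At 0.4 neither list had a call, where 0.910% of all genes were called higher and 0.676% lower.

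Of 20 regulators of milk genes 19 were tested, and the exact binomial test called 0 higher and 6 lower, with a median of -0.50. Over all genes 8.16% were called higher and 6.55% lower, so 0 of 19 called higher lies near the share of all genes. The prolactin receptor Prlr counted 3967 reads in ctrl and 1379 in M2 (log2 difference -1.59). Elf5 (-1.11) and Stat5a (-1.07), transcription factors of the secretory programme, were lower as well. So were the neuregulin receptor Erbb4 (-3.21), the progesterone receptor Pgr (-2.54) and the oestrogen receptor Esr1 (-1.94). Among those not called were Stat5b (-0.50), Jak2 (0.66) and Cish (0.52), a STAT5 target that dampens the pathway. At an assumed CV of 0.2 the calls of Elf5 and Stat5a were lost (edgeR exactTest, adjusted p = 0.0795 and 0.1001). That left 4 lower, where 3.59% of all genes were. At 0.4 none was called, where 0.910% of all genes were called higher and 0.676% lower. The paper reports a smaller share of Sca1-high luminal cells in M2 organoids, and describes Sca1 as a label of oestrogen-receptor-positive luminal cells. The part of that share in the lower receptor values was not tested.

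**Figure D5:**
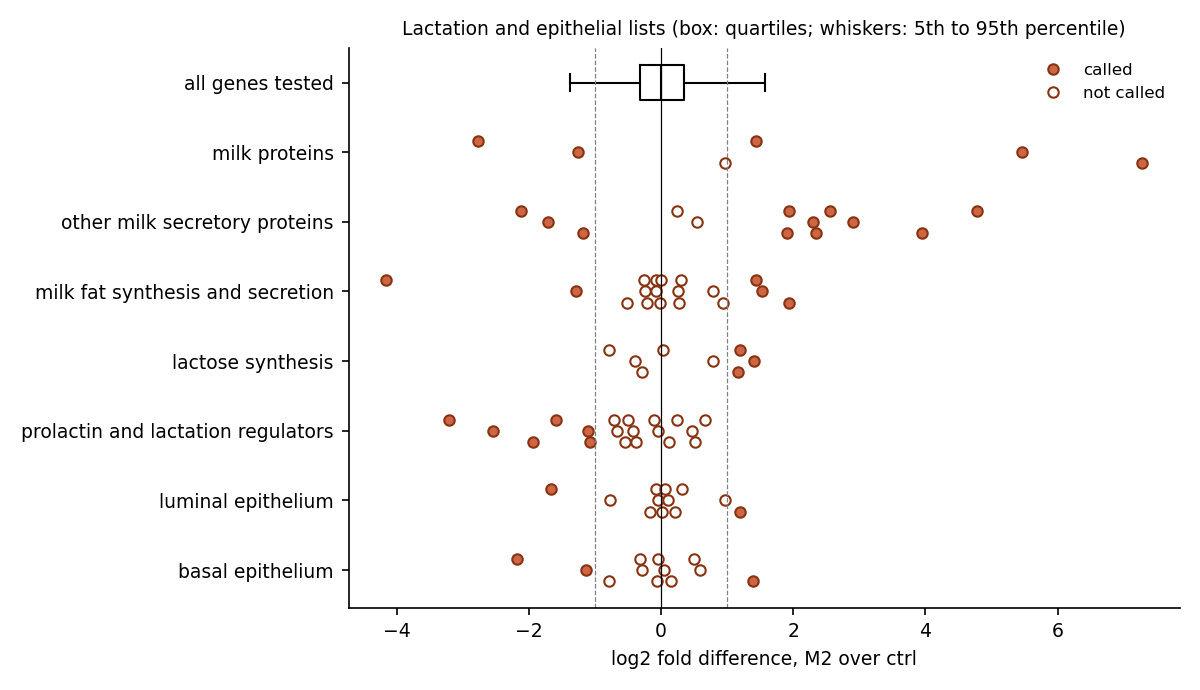
Log2 difference (M2 over ctrl) of each tested gene in the milk protein list and 6 further lists, 1 circle per gene, filled where called, with dashed lines at a 2-fold difference and a box (quartiles, with whiskers at the 5th and 95th percentiles) for all genes tested. The called regulators all lie below 0 (-3.21 to -1.07), and the milk proteins spread from -2.77 to 7.28; the milk fat gene at the far left is Cd36, with 0 reads in M2 and 1 read added.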

How the data were processed

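RNA of 1 ctrl and 1 M2 library was compared, with groups taken from the sample labels. The deposited values are unnormalized read counts for each gene, made by the authors, although the design text speaks of a microarray. The submitters' processing notes name GRCm38 and mm10; the aligner, counting tool, annotation and use of strand are not given in the sources used here, so reads of antisense genes cannot be told apart. Per the labels libraries were made with a SMARTER kit, without stated molecular identifiers, so PCR reads are not independent molecules and intervals cover counting error only. Library sizes were 26912610 and 29413844 reads, with TMM factors of 1.02 and 0.980 (edgeR 4.0.16, R 4.3.3; Python 3.11.15, scipy 1.17.1).

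The 19233 genes with at least 10 reads in all were tested by a two-sided exact binomial test with Benjamini-Hochberg adjustment, with a call at an adjusted p under 0.05 and 2-fold. A quasi-likelihood fit or DESeq2 could not be run, since 1 library per group gives no dispersion. Instead edgeR's exactTest was run with assumed CVs of 0.1, 0.2 and 0.4. Fold intervals are Clopper-Pearson with no read added, level intervals Poisson and share intervals Wilson, at 95%, with a floor of 3 reads. The script was tested on simulated counts that held counting noise only and no variation between cultures. That checks the computation and not whether the calls would recur in other cultures. Other scalings, read filters, pseudocounts, a 4-fold limit and other gene lengths were tried. Names of 26 genes read as dates, and these genes were tested but not named. Promoter windows came from RefSeq. Over all annotated transcripts, 9.60% of the 50-base stretches of Xdh, 0.984% of those of Csn3 and 5 of 7401 of those of Csn2 occur in another gene, so some of their reads could be split. Those of the other members, and those in the longest coding transcript of each member, do not. Named genes are all members, the tested neighbours of the casein genes, the called genes of the milk lists with up to 4 further examples, and up to 4 markers per cell type list besides those called or at 0. The members and lists were chosen with earlier results of these data known.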

Additional observations from a re-analysis of the deposited data

How the results depend on the processing

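No paired analysis was possible because ctrl and M2 hold 1 library each. Csn1s1 (7.22 to 7.28), Csn2 (4.75 to 5.72), Csn3 (1.37 to 1.44), Btn1a1 (-2.83 to -2.77) and Lalba (-1.31 to -1.20) kept their direction under other scalings, library sizes, filters and pseudocounts, and Xdh (0.91 to 0.98) was never called. A minimum of 1 CPM in both libraries, before TMM scaling, left Csn2 and Lalba untested, so they have no value under it and the members called higher fell from 3 to 2. A 4-fold limit ended the calls of Csn3 (1.43) and Lalba (-1.25). An assumed CV of 0.2 ended that of Lalba (-1.25), and one of 0.4 those of Csn3 (1.43), Lalba (-1.25) and Btn1a1 (-2.77). The members called lower numbered 1 with at least 1 CPM in both libraries, 1 at 4-fold, 1 at a CV of 0.2 and 0 at 0.4. Over all genes, those higher numbered 806, 616, 964 and 175 under these settings, and those lower 579, 494, 691 and 130. The other lists' counts of calls stayed within 1.5 times in 223 of 260 cases, and in 160 of 160 under other scalings, library sizes, pseudocounts and a minimum of 1 read. Without mitochondrial reads the 10 genes made up 0.0463% of ctrl and 0.338% of M2, and without Csn1s1 0.0423% and 0.0692%. Per table length Csn1s1 made up 4.91% and 74.7% of casein, and Csn3 94.9% and 25.1%. Per longest coding transcript, chosen after seeing the data, these were 8.07% and 83.4%, and 91.7% and 16.5%. Csn1s2a, Csn1s2b, Wap and Glycam1 were limited by depth.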
